A study of Mus musculus with 2 samples.

Results

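The genes described here encode the haematopoietic growth factor receptors of mouse spleen dendritic cells (DCs), with Flt3 at their centre. They were taken as the probe sets that the array's annotation assigned to exactly 1 of 10 listed receptor genes. This gave 15 probe sets for 9 genes, of 45101 probe sets on the array and 18194 genes with a single-gene probe set. The tenth listed gene, Il2rg, had no single-gene probe set in the annotation used and is not analysed here. Both populations came from the spleens of C57BL/6 mice that carried B16 melanoma cells engineered to secrete Flt3 ligand, and were taken 10 to 12 days after the tumour cells were injected. Magnetic enrichment and cell sorting gave CD11c+ cells without CD3 or B220, divided into CD8α+ and CD8α- DCs, and neither was stimulated. Total RNA of each population was hybridised to 1 Affymetrix array. How many mice stood behind each array, and whether they were pooled, was not given in the sources used here. All animals carried the tumour and the excess of Flt3 ligand, so no array shows DCs without them. With 1 array per population no test was possible, and a difference cannot be told apart from variation between mice, sorts or arrays. In such bulk samples, fewer cells that carry a transcript and less transcript per cell also cannot be told apart.

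As background, growth factor receptors of blood cells fall into a few structural families. Flt3, Kit and Csf1r are receptor tyrosine kinases of class III, in which the ligand draws receptor chains together and the kinase domains phosphorylate each other. The other listed genes encode cytokine receptor chains without kinase activity, which signal through Janus kinases (JAKs) and STAT transcription factors. Flt3 signalling drives the development of DCs from bone marrow progenitors and sustains them in the spleen, and GM-CSF acts on DCs through the products of Csf2ra and Csf2rb.

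Values are log2 signals per probe set, and differences are CD8+ minus CD8- on that scale. A probe set was taken as measured where its higher value reached the floor, a log2 signal of 3.85 that is the median over the whole table. This left 11404 measured genes, each represented by its probe set with the highest mean. The medians of the arrays were 3.86 (CD8+) and 3.83 (CD8-). The sort was visible in Cd8a, at 11.29 in CD8+ and 5.15 in CD8- DCs on its main probe set. The differences of its 5 probe sets ran from 1.73 to 6.26. Itgax, which encodes CD11c, was at 9.80 and 10.69, and Ptprc, whose B220 isoform was gated out, was at 11.69 and 12.42. Cd3e (4.76 and 4.90) and Cd3d (3.19 and 3.10), which encode chains of the T cell receptor complex, were low. Of the conventional DC marker genes, a list that holds Flt3 itself, all 10 with a probe set reached the floor in CD8- DCs. In CD8+ DCs 9 did so. Among them was Zbtb46, a transcription factor gene of conventional DCs (9.04 and 8.54). Of the 6 B cell genes with a probe set, 2 reached the floor in CD8+ and 3 in CD8- DCs, and they did not move one way. Cd79b (3.28 and 6.59) was higher in CD8- DCs, Ms4a1 (5.74 and 4.99) was higher in CD8+ DCs, and Cd79a (3.55 and 3.35) was below the floor. Of the 6 melanoma genes, 2 reached the floor on both arrays, Sox10 (5.21 and 4.85) and Pmel (4.40 and 4.30). Mlana (2.66 on both arrays), Tyr (2.35 and 2.49), Dct (3.44 and 3.23) and Tyrp1 (2.75 and 2.47) were below it. The part of tumour cells in these values was not tested.

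Of the receptors, Csf1r was the 1 gene that differed strongly and on every probe set, being higher in CD8- DCs. Flt3, Kit and the GM-CSF and IL-3 receptor genes lay within 1.26-fold between the populations. Il7r and Csf3r were dim and somewhat higher in CD8- DCs, with CD8+ values below the floor. All 9 genes were measured, and 7 of them reached the floor on both arrays. In all, 2 of the 9 genes (Csf1r and Il7r) were past 2-fold in favour of CD8- DCs, against 5.97% of all measured genes. None was past 2-fold in favour of CD8+ DCs, against 3.55% of all measured genes. By probe set, 4 of the 15 were past 2-fold in favour of CD8- DCs, against 5.64% of all measured probe sets. By any amount, 6 of the 9 were higher in CD8- DCs, against 44.8% of measured genes. With a smooth (lowess) trend across signal levels subtracted, Csf2rb2 changed sign and the count was 5 of 9, against 47.5% of measured genes. The median difference over the 9 genes was -0.11, beside 0.03 over all measured genes. When values under the floor were raised to it, Il7r lost its place past 2-fold and Csf1r alone kept it.

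**Figure D1:**
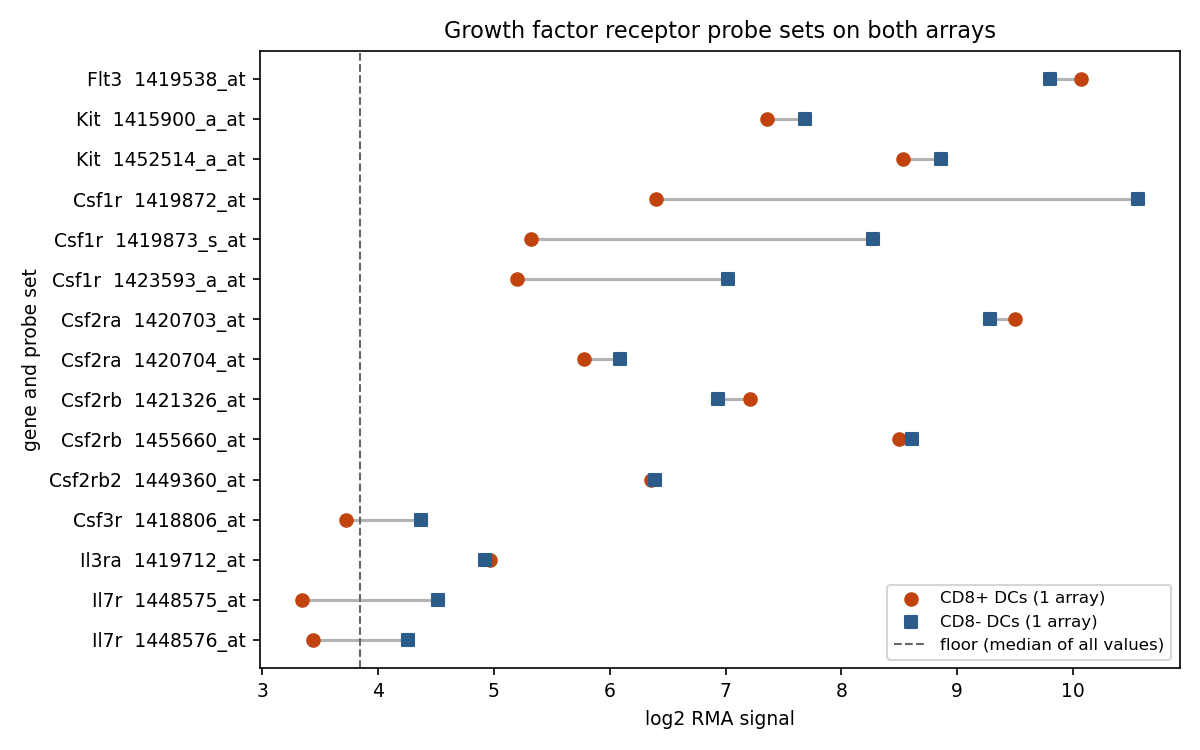
Log2 RMA signal of each of the 15 probe sets of the 9 receptor genes in CD8+ DCs (orange circles) and CD8- DCs (blue squares), 1 array each, with the floor of 3.85 as a dashed line. The 3 Csf1r probe sets have the widest gaps, and the Il7r and Csf3r probe sets are the ones that cross the floor.

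Among the receptor tyrosine kinases, Flt3 was bright on both arrays. Its single probe set read 10.07 in CD8+ DCs and 9.80 in CD8- DCs, so the CD8+ array was slightly higher. The difference of 0.27, or 1.21-fold, was smaller than the pooled SD of 0.30 with which probe sets of the same gene differed from each other across the array. That SD measures disagreement between probe sets and not variation between mice. A larger absolute difference was found for 5392 measured genes (47.3%). Flt3 has no further probe set here that could be set beside this value.

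Kit encodes the receptor for stem cell factor, which acts on haematopoietic progenitors and mast cells. Its main probe set read 8.53 in CD8+ and 8.86 in CD8- DCs. The other Kit probe set read 7.36 and 7.68. The probe sets gave nearly the same difference, -0.33 on each, and both were higher in CD8- DCs by 1.25-fold and 1.26-fold. The names of both end in _a_at, so Kit had no value when such probe sets were left out. Kit therefore had the opposite sign to Flt3, at a size that 39.5% of measured genes exceeded. Mast cells, basophils and progenitors also express Kit. Of the 7 mast cell and basophil genes with a probe set, 2 reached the floor in CD8+ DCs and 1 in CD8- DCs. These were Gata2 (4.18 and 4.15), on both arrays, and Tpsb2 (3.92 and 3.78), in CD8+ DCs only. The basophil protease gene Mcpt8 (3.22 on both arrays), the mast cell protease gene Cpa3 (2.74 and 2.30) and the IgE receptor gene Ms4a2 (3.12 and 2.97) were below the floor. Of the 6 progenitor genes with a probe set, a list that holds Kit itself, 4 reached the floor on each array. Beside Kit these were Myb (5.60 and 5.48), Sox4 (4.51 and 5.24, with probe sets from -4.93 to 0.07) and Hoxa9 (4.63 and 4.24), while the stem and progenitor genes Cd34 (1.95 and 3.24) and Meis1 (2.66 and 3.79) were below it. The part of such cells in the Kit values was not tested.

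Csf1r encodes the receptor for M-CSF and IL-34, a defining receptor of monocytes and macrophages. Its main probe set read 6.40 on the CD8+ array and 10.56 on the CD8- array, which is a difference of -4.17 or 17.9-fold. The next read 5.32 and 8.27, which is 7.73-fold. The last read 5.20 and 7.02, which is 3.54-fold. All 3 probe sets were above the floor on both arrays and higher in CD8- DCs, but the size of the difference varied from -1.82 to -4.17 among them, with an SD of 1.17. The cause of that spread was not tested. Only 51 of the 11404 measured genes had a lower difference than Csf1r. The Csf1r transcript was still above the floor in CD8+ DCs.

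Markers of monocytes and macrophages moved with Csf1r in part. Of the 7 monocyte genes with a probe set, 6 reached the floor in CD8+ DCs and 7 in CD8- DCs, and the log2 of their summed signal was 11.70 and 11.19. The fractalkine receptor gene Cx3cr1 (3.35 and 7.81) and the chemokine receptor gene Ccr2 (6.03 and 9.32) were higher in CD8- DCs, whereas the innate receptor gene Treml4 (10.43 and 7.91) and the LPS co-receptor gene Cd14 (7.50 and 6.10) were higher in CD8+ DCs. Lyz2, which encodes lysozyme, was at 10.69 and 10.11. Of the 9 red pulp macrophage genes, 3 reached the floor in CD8+ and 6 in CD8- DCs, with log2 summed signals of 7.87 and 8.99. Adgre1, the gene of a classical macrophage surface antigen, read 4.63 and 8.22. The complement genes C1qa (2.84 and 5.30), C1qb (3.25 and 5.41) and C1qc (3.34 and 4.63) were also higher in CD8- DCs. Hmox1, a haem-degrading enzyme gene (6.80 and 5.65), and the adhesion molecule gene Vcam1 (5.52 and 4.66) were higher in CD8+ DCs, and the 3 Vcam1 probe sets ran from 0.42 to 2.49. Spic (3.40 and 3.74), the transcription factor gene of red pulp macrophages, and Cd5l (2.78 and 2.85) were below the floor on both arrays. The part of other cells in the Csf1r difference was not tested.

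**Figure D2:**
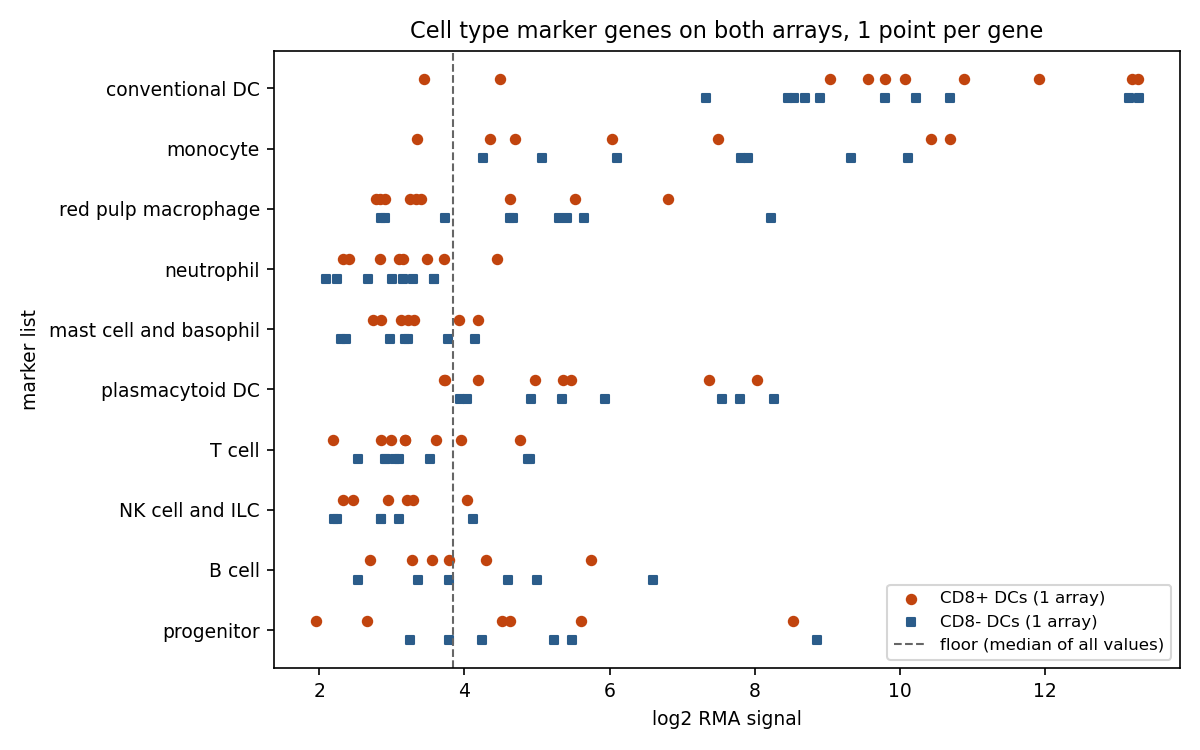
Log2 RMA signal of marker genes of conventional DCs and of other cell types, 1 point per gene, in CD8+ DCs (orange circles) and CD8- DCs (blue squares), with the floor of 3.85 as a dashed line. Conventional DC genes reach 13.28 and 13.29, and most neutrophil, mast cell, T cell and NK cell genes lie below the floor on both arrays.

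The GM-CSF and IL-3 receptors share signalling chains. Csf2ra encodes the ligand-binding α chain of the GM-CSF receptor, and its main probe set read 9.50 in CD8+ and 9.28 in CD8- DCs. Its other probe set read 5.78 and 6.09. The differences were 0.22 and -0.31, so the probe sets disagreed in sign and no direction is given for Csf2ra.

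Csf2rb encodes the common β chain, which passes on the signal of GM-CSF, IL-3 and IL-5. Its main probe set read 8.49 and 8.61 in CD8+ and CD8- DCs, and the other read 7.21 and 6.94. The differences, -0.11 and 0.27, again had opposite signs. Csf2rb2 encodes a second β chain of the mouse that serves IL-3 only. Its single probe set read 6.36 and 6.39, a difference of -0.03 that 92.1% of measured genes exceeded. The Csf2rb and Csf2rb2 genes are close copies that lie side by side on chromosome 15, so probes for either could bind transcripts of both. A further probe set annotated to both genes stayed outside the selection.

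Il3ra encodes the α chain of the IL-3 receptor. Its probe set was near the dim end of the range and read 4.97 in CD8+ and 4.92 in CD8- DCs, so the arrays were almost level. Il3ra is also in the marker list of plasmacytoid DCs, which carry B220 in mice and were gated out. All 8 genes of that list were measured. Siglech, the lectin gene that marks these cells in the mouse, was close to the floor (3.71 and 4.04), while Ccr9 (8.03 and 5.94) was higher in CD8+ DCs and the transcription factor genes Tcf4 (5.47 and 7.55) and Spib (3.73 and 8.27) were higher in CD8- DCs.

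Csf3r encodes the G-CSF receptor of neutrophils and their precursors. It read 3.72 in CD8+ DCs, below the floor, and 4.37 in CD8- DCs. Set against the floor, the CD8- value was at least 1.44-fold higher, with a measured difference of -0.65. Neutrophil genes were low on both arrays. Of 8 with a probe set, Ngp alone reached the floor, in CD8+ DCs (4.45 and 3.58), and the granulocyte gene S100a8 (2.32 and 2.09) stayed below it.

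Il7r encodes the IL-7 receptor α chain, which pairs with the product of Il2rg for IL-7 and with that of Crlf2 for TSLP. Its probe sets read 3.34 and 3.44 in CD8+ DCs, both below the floor, and 4.52 and 4.26 in CD8- DCs, both above it. The measured differences were -1.17 and -0.82. Set against the floor, the CD8- value of Il7r was at least 1.59-fold higher on its main probe set and at least 1.33-fold higher on the other, so its place past 2-fold rests on a near-background value; the average of both probe sets, -0.999, also fell short of 2-fold. Lymphocytes also express Il7r. Of the 8 T cell genes with a probe set, Cd3e and Cd5 (3.95 and 4.87) reached the floor, and the CD3 chain genes Cd3d and Cd3g (2.19 and 2.53) did not. Of the 6 NK cell and innate lymphoid cell genes, Prf1 alone reached it (4.04 and 4.11). The part of lymphocytes in the Il7r values was not tested.

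**Figure D3:**
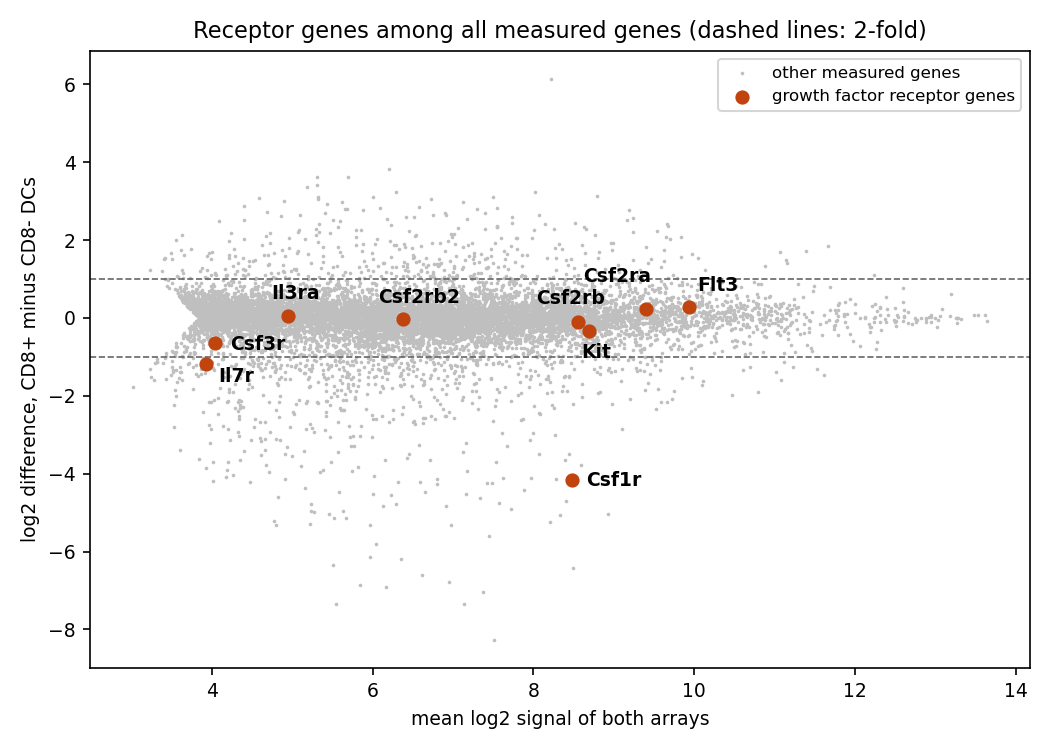
Log2 difference (CD8+ minus CD8- DCs) against the mean log2 signal of both arrays for the 11404 measured genes (grey), with the 9 receptor genes in orange and 2-fold marked by dashed lines. Csf1r lies at -4.17 and Il7r at -1.17, and the other 7 receptor genes lie between the lines.

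To give the receptor genes their regulatory context, the 250 bases before the annotated start were read from RefSeq (GRCm38.p6). This was done for members with an entry, but Csf1r was left out. The windows of Flt3, of Csf2ra, which was nearly level between the populations like Flt3, and of Il7r, which was dim and higher in CD8- DCs, are shown 5′ to 3′ on the gene's strand. Capitals mark GAGGAA, a core bound by the ETS factor PU.1, and TTCNNNGAA, the core of STAT sites, both searched on either strand. The Flt3 window lies at chr5:147400490-147400739 (minus strand), that of Csf2ra at chr19:61228419-61228668 (minus strand) and that of Il7r at chr15:9529877-9530126 (minus strand).
Flt3: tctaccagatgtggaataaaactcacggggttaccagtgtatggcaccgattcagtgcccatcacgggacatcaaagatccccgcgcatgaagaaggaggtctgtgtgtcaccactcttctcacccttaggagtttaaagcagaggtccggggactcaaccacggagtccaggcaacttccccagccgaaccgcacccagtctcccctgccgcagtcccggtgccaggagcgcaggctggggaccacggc
Csf2ra: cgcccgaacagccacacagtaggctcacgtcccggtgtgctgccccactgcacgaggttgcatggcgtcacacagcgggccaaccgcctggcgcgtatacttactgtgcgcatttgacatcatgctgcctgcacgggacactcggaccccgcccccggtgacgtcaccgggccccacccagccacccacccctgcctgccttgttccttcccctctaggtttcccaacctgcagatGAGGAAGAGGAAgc
Il7r: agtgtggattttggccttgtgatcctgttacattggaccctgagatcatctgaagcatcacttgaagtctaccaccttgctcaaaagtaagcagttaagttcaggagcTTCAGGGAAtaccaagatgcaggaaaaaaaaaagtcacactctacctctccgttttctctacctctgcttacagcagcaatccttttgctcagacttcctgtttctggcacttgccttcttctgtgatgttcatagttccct

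The Csf2ra window held 2 GAGGAA copies side by side just before the start, the Il7r window held a TTCNNNGAA match, and the Flt3 window held neither. Windows were read for 7 measured receptor genes, not including Csf1r and Csf2rb. GAGGAA was found in 4 of the 7 (Kit, Csf2ra, Csf2rb2 and Csf3r), and in 22.2% of all 21263 windows of protein-coding genes. TTCNNNGAA was found in 2 of the 7 (Il7r and Csf2rb2), and in 6.58% of all windows. A match is a run of letters and not a measured binding site. Spi1, which encodes PU.1, read 9.17 in CD8+ and 9.52 in CD8- DCs.

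Few ligands of these receptors were transcribed above the floor in the DCs themselves. Of 15 ligand genes listed, 14 had a single-gene probe set and 2 were measured. Flt3l had no single-gene probe set here. A probe set annotated to both Flt3l and Rpl13a read 4.67 in CD8+ and 5.81 in CD8- DCs, or 2.20-fold. It stayed outside the list, and the part of Flt3l in its signal was not tested. Il15, whose product signals through Il2rb and the common γ chain, read 6.72 (CD8+) and 5.01 (CD8-), a difference of 1.71. Csf1, which encodes M-CSF, the ligand of Csf1r, read 5.94 and 5.68. Il34, which encodes the other Csf1r ligand, was below the floor (3.39 and 3.30), as were the Kit ligand gene Kitl (3.41 and 3.32), the GM-CSF gene Csf2 (3.53 and 3.34) and Il7 (2.58 and 2.50), which were named after their values were seen. Of the 2 measured ligand genes, 1 was past 2-fold in favour of CD8+ DCs, against 3.55% of all measured genes. None was past 2-fold in favour of CD8- DCs, against 5.97%. With 2 genes measured, these counts give no direction for the ligands.

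Among partner chains and related receptors, 5 of the 11 genes with a probe set were measured. Their median difference was -0.28, but it was 0.25 without the filter on dim probe sets or without probe sets whose names end in _x_at, _s_at or _a_at. Il21r, which pairs with the common γ chain to receive IL-21, read 4.58 in CD8+ and 6.68 in CD8- DCs. Its difference of -2.11 was the 1 value past 2-fold among the 5 measured, against 9.52% of all measured genes in either direction. Crlf2, the TSLP receptor chain that pairs with Il7r, was bright on both arrays at 8.96 and 9.38. Il7r and Crlf2 are thus a receptor pair of which the Crlf2 transcript was above the floor in both populations and the Il7r transcript in CD8- DCs. Il4ra, the IL-4 receptor α chain gene, read 6.10 and 6.38, Il15ra 5.50 and 5.25, and the erythropoietin receptor gene Epor 4.66 and 4.22. The chains of the IL-2 receptor, Il2ra (2.45 and 2.60) and Il2rb (3.21 and 2.86), were below the floor on both arrays.

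No signal transducer reached 2-fold, against 9.52% of all measured genes in either direction. Only with each array centred on its median did Pik3cd (-1.02) reach it. Of 20 measured genes 13 were on the CD8- side, against 44.8% of all measured genes, and 7 on the CD8+ side, and their median difference was -0.22. The largest difference was that of Pik3cd, which encodes the leukocyte PI3-kinase subunit p110δ (7.55 and 8.54). Its 5 measured probe sets ran from -1.04 to 0.25. Both genes of STAT5, the STAT used by GM-CSF, IL-3 and IL-7, were higher in CD8- DCs. Stat5a read 6.61 and 7.40, and Stat5b read 6.21 and 7.08. Each had 2 measured probe sets, all with negative differences. Jak3, the kinase bound to the common γ chain, read 4.91 and 5.76 on its 1 probe set. Tyk2, a JAK of the interferon and IL-12 receptors, was higher in CD8+ DCs at 8.18 and 7.33. Its 2 probe sets ran from 0.18 to 0.85, so the size of that difference is uncertain.

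Of 13 measured negative regulators, 3 were past 2-fold in favour of CD8- DCs, against 5.97% of all measured genes, and 1 in favour of CD8+ DCs, against 3.55%. Their median difference was -0.10. Socs3, a feedback inhibitor of cytokine receptors that include the G-CSF receptor, read 5.17 (CD8+) and 7.90 (CD8-), and its 3 probe sets ran from -2.72 to -0.995. Without probe sets whose names end in _x_at, _s_at or _a_at, which can bind several transcripts, its difference was -0.995 and no longer past 2-fold. Socs2, a STAT5 target and feedback inhibitor, read 4.22 and 6.41. Ptpn6 encodes SHP-1, a phosphatase that dampens signals of Kit and of cytokine receptors. It read 8.81 and 10.68, and its 2 probe sets gave nearly equal differences of -1.87 and -1.85. Spred1, an inhibitor of the Ras-MAP kinase path, read 6.44 and 7.42. In the other direction, the ubiquitin ligase gene Cblb read 8.40 in CD8+ and 6.90 in CD8- DCs. Its 3 probe sets were all higher in CD8+ DCs but ran from 0.21 to 1.5, and their average of 0.75 was under 2-fold.

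Of 12 measured transcription factor genes that act on myeloid receptor genes or myeloid fate, 9 were higher in CD8- DCs, against 44.8% of all measured genes, and their median difference was -0.80, beside 0.03 over all measured genes. The list shares Stat5a and Stat5b with the signal transducers, and Irf4 and Irf8 with the conventional DC markers. Of the 12, 3 were past 2-fold in favour of CD8- DCs, against 5.97% of all measured genes. These were Irf4 (3.44 and 7.33, at least 11.2-fold), Klf4, a factor of monocyte differentiation (5.40 and 8.85), and Cebpa (4.91 and 6.43). Cebpa activates the G-CSF receptor gene in myeloid progenitors. Irf8, a factor that CD8+ DCs depend on, was the 1 gene past 2-fold in the other direction (11.91 and 10.23), against 3.55%. Cebpb read 5.15 and 6.08. Runx1, which acts on the Csf1r gene together with PU.1 and was named after its values were seen, read 6.77 and 7.30, with all 6 probe sets lower in CD8+ DCs.

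**Figure D4:**
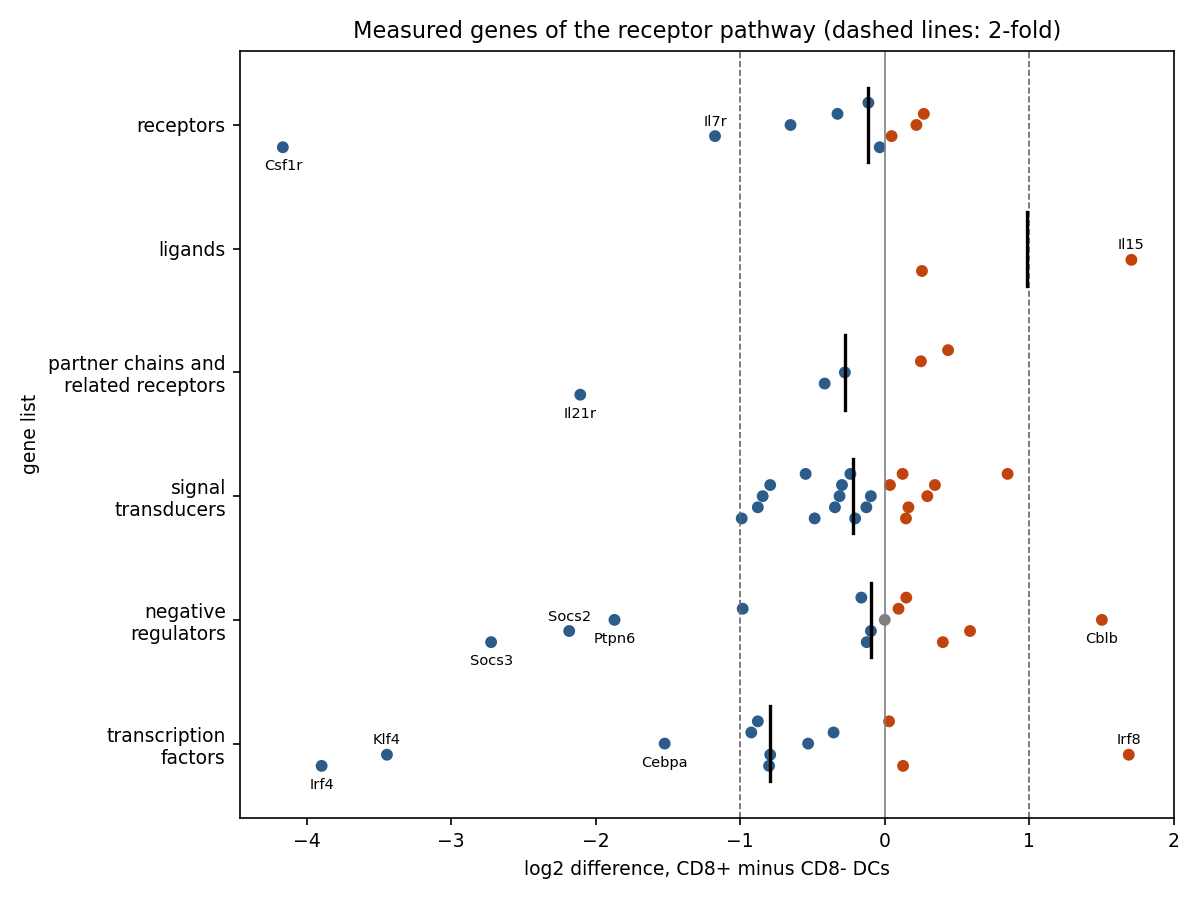
Log2 difference (CD8+ minus CD8- DCs) of each measured gene in the receptor list and in 5 lists of their pathway, with list medians as black bars and 2-fold marked by dashed lines. Genes past 2-fold are named, and Csf1r has the lowest difference in the plot at -4.17.

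In the RefSeq gene order, Csf1r lies between Pdgfrb, a gene of the same receptor class, and Hmgxb3. Pdgfrb lay below the floor (3.44 and 3.15) and Hmgxb3 read 5.99 and 5.91, so neither neighbour shared the Csf1r difference. Kit lies between Pdgfra, also of class III and below the floor (3.53 and 3.15), and Kdr, which encodes a receptor of vascular endothelial growth factor. Kdr read 5.20 (CD8+) and 6.30 (CD8-), a difference of -1.10. Csf2rb2 lies between Csf2rb and Ncf4, an NADPH oxidase subunit gene (9.39 and 9.11), and none of these 3 genes reached 2-fold.

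With 2 arrays, likeness to a receptor gene can be measured only by the size of the difference. Among genes with at least 2 measured probe sets of the same sign, the differences closest to that of Csf1r were those of Ccr1 (-4.15), Ms4a6b (-4.13) and Sirpa (-4.20). Ccr1 was below the floor in CD8+ DCs (2.84 and 6.99), while Ms4a6b (6.22 and 10.35) and Sirpa (4.49 and 8.69) were above it on both arrays. Those closest to Flt3 were Dnmt3b, Nkapd1 and Scaf4, each at 0.27, a size of difference that is common on these arrays.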

How the data were processed

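The deposited table held log2 signals per probe set for biotin-labelled cRNA of 2 samples, and the authors made them with RMA (background correction, quantile normalisation, median polish), per the submitters' processing notes. Its version was not given in the sources used here. Quantile normalisation hides a shift shared by most transcripts. Of 45101 probe sets, 34958 had a single gene in the platform annotation, 932 several, and 9211 were not listed and are unnamed here. Of the single-gene probe sets, 34754 matched RefSeq GRCm38.p6 by gene identifier. The probe set with the highest mean stood for a gene. A gene was measured where its higher value reached the median of all values. Below that floor a fold is given as "at least", against the floor. Log2 differences and a 2-fold threshold were computed, with no test, since each population had 1 array, and the number of arrays limits the precision. The receptor genes and lists were chosen with earlier results of these data known. Named were all receptor genes, up to 5 largest differences per pathway list, the sort markers and the 3 genes closest in difference to Flt3 and to Csf1r. All others were named after their values were seen. Alternatives covered centring, a lowess trend (span 0.3), the filter, the choice of probe sets, the floor and the threshold. Python 3.11.15, numpy 2.4.6, pandas 2.3.3 and statsmodels 0.14.6 were used, and the calculation was checked on simulated data.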

Additional observations from a re-analysis of the deposited data

How the results depend on the processing

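A value counted as moved where it changed by more than 0.30, the pooled SD between probe sets of a gene, and a count where it changed by over 1.5 times. By that measure 237 of the recomputed values did not move, 27 moved, and none past 2-fold changed sign. Some could not move under most settings: the value of Flt3, with 1 bright probe set, was altered only by centring and the lowess trend. Small differences could change sign without counting as moved. With all probe sets averaged, Csf2ra was at -0.04 and Csf2rb at 0.08. Csf1r stayed at least 2-fold higher in CD8- DCs under every alternative run, and its difference was -2.98 with all its probe sets averaged, whether or not they had to reach the floor. The difference of Il7r was -0.67 when values under the floor were raised to it. The count of receptor genes higher in CD8- DCs fell from 2 to 1 under that setting, with averaged probe sets, with a floor at the 75th percentile (6 genes measured) and at 4-fold.

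The ligand median of 0.98 rests on 2 genes. It was 0.095 without a filter and 1.71 with the 75th percentile floor or without the _x_at, _s_at and _a_at probe sets. The partner chain median was 0.25 without a filter or without those probe sets. For signal transducers, 1 was higher in CD8- DCs with centred arrays, and 4 in CD8- and 1 in CD8+ DCs at 1.5-fold. For negative regulators, the count higher in CD8+ DCs was 0 with either way of averaging or at 4-fold, and 2 at 1.5-fold. For transcription factors, 7 were higher in CD8- DCs at 1.5-fold and 0 in CD8+ DCs at 4-fold. The ligand count in CD8+ DCs was 0 at 4-fold. Over all genes, 681 were past 2-fold in favour of CD8- DCs and 405 in favour of CD8+ DCs. At 1.5-fold these counts became 1314 and 968, and 4-fold left 239 and 98. No paired analysis was possible because each population had 1 array. Signals near the floor limit what can be said of Il7r, Csf3r and most ligand genes.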
